A study of Mus musculus with 15 samples.

Results

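Lpl, Spp1, Plau and Plaur encode 3 secreted proteins of macrophages and the receptor for the third of them. The genes were chosen by name. Lpl, Spp1 and Plau are among the top 3′UTR targets that the study listed from these same data. Their high 3′UTR counts, shares and ranks are therefore not independent of that choice. Every sense-strand crosslink site that fell in these 4 genes (GENCODE M21 on mm10) was collected from 6 lists of iCLIP sites. The lists held 162273 sites in all, of which 880 sites with 1879 cDNAs lay in the 4 genes, and 861 of these sites with 1856 cDNAs lay in their 3′UTRs. Across the series, 4835 genes had a 3′UTR site in at least 1 list.

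iCLIP maps where a protein touches RNA: ultraviolet light crosslinks the protein to the RNA, and reverse transcription stops beside the crosslink, so each unique cDNA marks a bound nucleotide. The protein here was tristetraprolin (TTP), which binds AU-rich elements in 3′UTRs, recruits deadenylases and is restrained by the kinase MK2. The cells were TTP-deficient bone marrow-derived macrophages of C57BL/6 mice, immortalised with human c-Myc and a mutant H-Ras, sorted for CD11b and F4/80, and transduced with a doxycycline-inducible GFP–TTP or GFP–TTP-AA, in which both serines phosphorylated by MK2 were replaced by alanine. Only the coding sequence of TTP was carried by the vector. All cells had received doxycycline (1 µg/ml) for 6 h and were collected at 0 h, 1 h or 4 h of LPS (1 µg/ml). The 15 samples formed 6 groups, of which TTP had 4 samples and TTP-AA had 3 at 1 h of LPS, and both had 2 samples each before LPS and after 4 h. Each group was deposited as 1 list with its samples summed, so no value below has a replicate error, and all intervals and p-values cover counting error only and compare lists, not conditions.

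The 6 lists held between 19167 and 174397 cDNAs, and between 906 and 93510 of them lay in 3′UTRs, with the lowest number in the TTP list at 4 h and the highest in the TTP-AA list at 1 h. As for the cell type, 7 of 8 macrophage markers had cDNAs, with 504 cDNAs in all, whereas 1 of 12 markers of other cells had any, with 3 cDNAs. Zfp36, the gene that encodes TTP and that is disrupted in these cells, had 3′UTR cDNAs, which the vector does not carry: 4 in the TTP list at 0 h, 21 in the TTP list at 1 h, 131 in the TTP-AA list at 1 h and none in the other lists.

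Lipoprotein lipase (Lpl) hydrolyses the triglycerides of circulating lipoproteins at the vessel wall and is secreted by macrophages as well as by fat and muscle cells. Osteopontin (Spp1) is a secreted phosphoprotein that binds integrins and CD44 and attracts and retains macrophages. Urokinase (Plau) cuts plasminogen into plasmin, and its receptor (Plaur) is a membrane-anchored protein that holds urokinase at the cell surface. All 4 genes lie on the plus strand. Lpl (ENSMUSG00000015568.16) spans chr8:68880491-68907448, and its 3′UTR, in the last of 10 exons, covers 2428 nt at chr8:68904507-68906934. Spp1 (ENSMUSG00000029304.14) spans chr5:104435118-104441050, with a 3′UTR of 432 nt at chr5:104440619-104441050 in exon 7 of 7. Plau (ENSMUSG00000021822.3) spans chr14:20836660-20843385, with a 3′UTR of 935 nt at chr14:20842451-20843385 in exon 11 of 11. Plaur (ENSMUSG00000046223.10) spans chr7:24462484-24475968, with a 3′UTR of 496 nt at chr7:24475472-24475967 in exon 7 of 7.

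The stretches that collected most cDNAs are shown first, because the 4 genes were bound at quite different sequences. For each gene, 30-nt windows at least 30 nt apart were taken in the order of their cDNAs in the TTP-AA list at 1 h, so their counts in that list are a description of how they were chosen. Positions count from 1 at the first nucleotide after the stop codon, sequences are the plus strand of GRCm38 (mm10) written as RNA, and capitals mark AUUUA, the core of the AU-rich element.
Lpl 2168 to 2197, chr8:68906674-68906703: uuucaAUUUAUUUAuuagcuguaaauaaug
Lpl 1716 to 1745, chr8:68906222-68906251: caacaaaaaucaauaaugaagaauuAUUUA
Lpl 65 to 94, chr8:68904571-68904600: aAUUUAAUUUAaaaaaauaauacccuuguu
Spp1 110 to 139, chr5:104440728-104440757: uauguauguagagaaagagagguaauauuu
Spp1 372 to 401, chr5:104440990-104441019: gcauauauuuuguugugauuauuuuuuuug
Plau 866 to 895, chr14:20843316-20843345: uucugcuauuuuuAUUUAuaucuauuuuua
Plau 770 to 799, chr14:20843220-20843249: uuuuuuuuuuuuuuuuuuacuaauuagccu
Plaur 189 to 218, chr7:24475660-24475689: uuauuauuauuaucauuguuauugcucuaa

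All 3 Lpl windows and the first Plau window held AUUUA, whereas neither of these Spp1 windows nor the Plaur window held it whole. AUUUA occurs in 65.2% of the 21021 longest 3′UTRs of protein-coding genes and UAUUUAU, the heptamer that contains it, in 27.6%. Lpl holds 5 AUUUA and 2 UAUUUAU, Plau holds 2 AUUUA and 1 UAUUUAU, and Spp1 and Plaur hold 2 AUUUA each and no UAUUUAU. Of 3′UTRs that differ in length by at most 25%, 93.5% hold AUUUA for Lpl, 70.6% for Plau, 49.9% for Plaur and 44.9% for Spp1, so its mere presence in Lpl is common for a 3′UTR of that length.

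Nearly all cDNAs of the 4 genes lay in their 3′UTRs. The 3′UTR held 628 of 634 Lpl cDNAs (99.1%, exact 95% interval 98.0% to 99.7%), 623 of 635 Spp1 cDNAs (98.1%, 96.7% to 99.0%), all 541 Plau cDNAs (lower limit 99.3%) and 64 of 69 Plaur cDNAs (92.8%, 83.9% to 97.6%). Over all protein-coding genes and all lists the share was 69.0%, with 85.6% in the 1 h list of TTP-AA. The study ranked Lpl, Spp1 and Plau by their 3′UTR crosslinks, so a high 3′UTR share is partly given by their choice. The few other sites were small clusters. Spp1 had 7 cDNAs at 4 sites near the end of its coding sequence in the TTP-AA list at 1 h, and 5′UTR cDNAs in both 1 h lists, 3 with TTP-AA and 2 with TTP. Lpl had 2 single-cDNA sites each in its 5′UTR and in an intron (TTP-AA, 1 h) and in its coding sequence (TTP-AA, 4 h). Plaur had 5 intronic cDNAs on 4 adjoining nucleotides, chr7:24474180-24474183, in the TTP list at 1 h and in no other list. No site lay antisense to the 4 genes, and none of their sites matched a second gene.

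Lpl carried 12 3′UTR cDNAs at 9 sites with TTP and 14 at 10 sites with TTP-AA at 0 h. At 1 h it carried 86 cDNAs at 73 sites with TTP and 516 at 278 sites with TTP-AA, and at 4 h neither list had a 3′UTR site in Lpl. Its highest count was therefore in the TTP-AA list at 1 h, where Lpl ranked 12 among the 4468 genes with 3′UTR cDNAs. In the TTP list at 1 h it also ranked 12, among 1295 genes.

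Spp1 had the most 3′UTR cDNAs per nucleotide of the 4. At 0 h it had 47 3′UTR cDNAs at 26 sites with TTP and 14 at 8 sites with TTP-AA, at 1 h it had 97 at 68 sites with TTP and 457 at 180 sites with TTP-AA, and at 4 h it had none with TTP and 8 at 6 sites with TTP-AA. It was the only member with a 3′UTR site at 4 h and the only one that had more cDNAs with TTP than with TTP-AA by a margin beyond counting error, at 0 h. Per 100 nt of 3′UTR, Spp1 had 106 cDNAs in the TTP-AA list at 1 h, and 41.7% of its 3′UTR nucleotides were sites there. By that density it ranked 13 among 4427 genes with a 3′UTR of at least 100 nt, beside ranks of 26 for Plau (50.8 cDNAs per 100 nt), 58 for Lpl (21.3) and 116 for Plaur (11.9).

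Plau had 20 3′UTR cDNAs at 19 sites with TTP and 17 at 11 sites with TTP-AA at 0 h. At 1 h it had 29 at 24 sites with TTP and 475 at 103 sites with TTP-AA, and none at 4 h. Plau led the members in cDNAs per site only with TTP-AA at 1 h. With TTP, Plau had 1.05 at 0 h and 1.21 at 1 h, where Spp1 had 1.81 and 1.43. With TTP-AA before LPS, Plau had 1.55 and Spp1 had 1.75. In the TTP-AA list at 1 h it had 4.61 cDNAs per site, against 2.54 for Spp1, 1.86 for Lpl and 1.44 for Plaur, and 22.3% of its sites had a single cDNA, against 57.2%, 63.7% and 70.7%. In the same list 14 Plau sites, 8 Spp1 sites, 2 Lpl sites and no Plaur site had 10 or more cDNAs.

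The receptor gene had far fewer cDNAs than the gene of its ligand. Plaur had no 3′UTR site at 0 h or 4 h, 5 cDNAs at 5 sites with TTP at 1 h and 59 at 41 sites with TTP-AA at 1 h, where it ranked 259 by cDNAs.

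**Figure D1:**
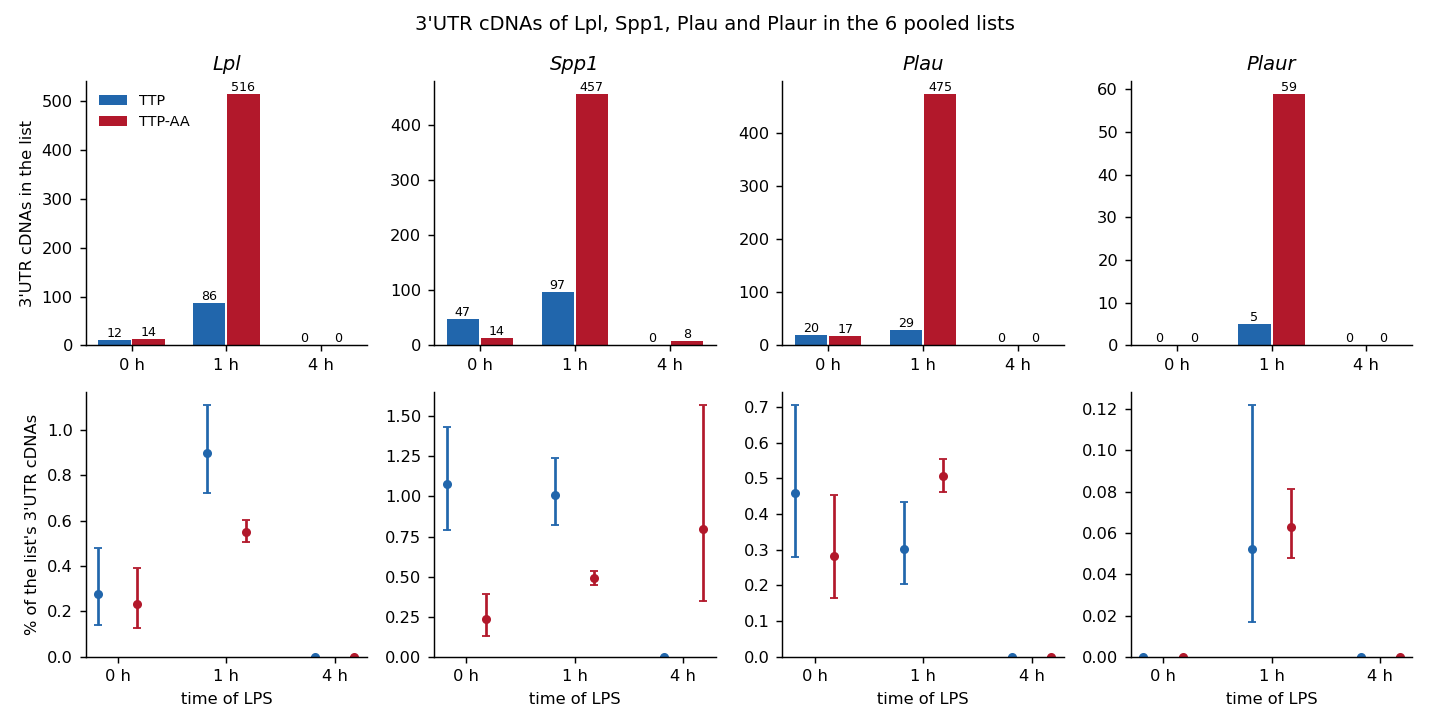
The upper panels give the 3′UTR cDNAs of each gene in the 6 pooled lists (bars, each panel with its own axis) and the lower panels give them as a percent of the list's 3′UTR cDNAs with exact 95% intervals, which cover counting error only and are not drawn where no cDNA was listed. The TTP-AA bars at 1 h stand far above the rest, but the shares of Lpl and Spp1 at 1 h are lower with TTP-AA than with TTP.

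At 1 h, the question was how the loss of the MK2 sites changes what TTP binds. The TTP-AA list had more cDNAs than the TTP list in the 3′UTR of every member. The ratio was 16.4 for Plau (exact 95% interval 11.3 to 24.7), 11.8 for Plaur (4.78 to 37.7), 6.00 for Lpl (4.77 to 7.63) and 4.71 for Spp1 (3.78 to 5.93), while the summed 3′UTR cDNAs of the lists had a ratio of 9.78 (9.58 to 9.99). Plau was thus above the ratio of the lists and Lpl and Spp1 were below it. Scaled to the libraries in each list the ratios were 21.8, 15.7, 8.0 and 6.28, and scaled to all cDNAs of each list 9.32, 6.72, 3.42 and 2.68. With each site counted once they were 4.29 for Plau (2.73 to 7.00), 8.20 for Plaur, 3.81 for Lpl and 2.65 for Spp1, and Plau no longer had the largest ratio. A cDNA count depends both on how much of an mRNA is present and on how much of it is bound, and these cannot be told apart in these lists.

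Expressed as a share of all 3′UTR cDNAs, Spp1 had 1.01% with TTP and 0.489% with TTP-AA (odds ratio 0.479, two-sided Fisher exact test with Benjamini-Hochberg adjustment over 2065 genes, adjusted p = 1.91e-07). Lpl had 0.900% and 0.552% (odds ratio 0.611, adjusted p = 0.00280 by the same exact test). Plau had 0.303% and 0.508% (odds ratio 1.68, adjusted p = 0.0749), and Plaur had 0.0523% and 0.0631% (odds ratio 1.21, adjusted p = 0.880), by the same exact test. So 2 of 4 members passed the threshold of 0.05, both with a lower share in the TTP-AA list. Of the 2065 genes, 6.39% passed in either direction, 4.41% with a lower share and 1.99% with a higher share. Those genes entered with as few as 10 cDNAs and were not matched to the members for counts. This comparison therefore does not show whether the members changed more often than other genes. The median log2 share ratio, with 0.5 cDNAs added to each count, was -0.28 over the 4 members and 1.23 over all genes tested, many of which had no cDNA in the TTP list. These directions hold only against the other 3′UTR cDNAs: set against all other cDNAs of the list, where the 3′UTR made up 9.63% with TTP and 53.6% with TTP-AA, all 4 genes had a higher share with TTP-AA, as did 1754 of the 1763 genes then called (41 of 132 before), with odds ratios of 3.42 for Lpl, 2.69 for Spp1, 9.35 for Plau and 6.72 for Plaur and exact adjusted p-values of at most 1.57e-06. With sites of at least 2 cDNAs alone, neither Lpl (odds ratio 1.22, exact adjusted p = 0.759) nor Spp1 (0.649, exact adjusted p = 0.0877) was called and Plau was (3.94, exact adjusted p = 5.55e-06), and with each site counted once Plau was called in the other direction (0.474, exact adjusted p = 0.0475).

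**Figure D2:**
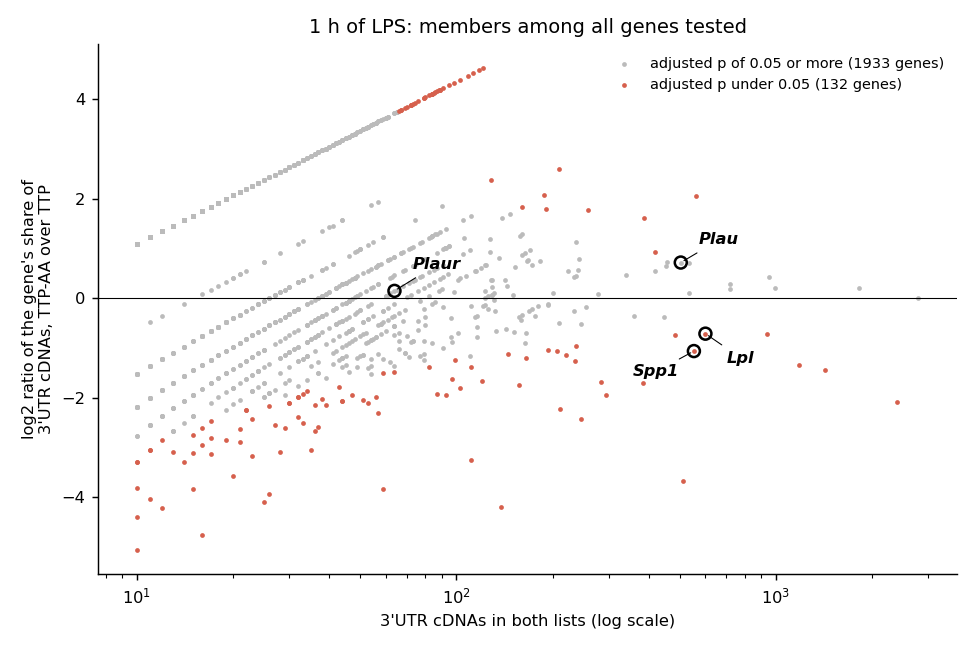
Each point is 1 of the 2065 genes tested at 1 h, with its 3′UTR cDNAs summed over both lists on the x axis (log scale) and the log2 ratio of its share of 3′UTR cDNAs, TTP-AA over TTP, on the y axis. Lpl and Spp1 lie below 0 among the 132 genes past the threshold, Plau lies above 0 and Plaur close to 0, both among the genes not past it, and the upper edge of rising points is formed by genes without TTP cDNAs.

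At 0 h, before LPS, Spp1 alone among the members differed between the proteins. Its share was 1.08% of the TTP list's 3′UTR cDNAs and 0.233% of the TTP-AA list's (odds ratio 0.215, exact adjusted p = 1.26e-06), and it was called in the same direction under all 5 other settings tried. Here 74 of 241 genes tested were called (30.7%), 17.4% with a higher and 13.3% with a lower share in the TTP-AA list. Lpl had 0.275% and 0.233% (odds ratio 0.848, interval 0.364 to 2.01, exact adjusted p = 0.859) and Plau 0.458% and 0.283% (0.617, interval 0.303 to 1.24, exact adjusted p = 0.334). The interval of Lpl includes odds ratios well below and well above 1, and that of Plau reaches from well below to slightly above 1, so differences within them were not detectable at this depth. Plaur had no cDNA in either list and was not tested.

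Whether the ratio of TTP-AA to TTP itself differed between 0 h and 1 h was tested with Zelen's exact test of equal odds ratios over 235 genes. Plau moved from an odds ratio of 0.620 at 0 h to 1.65 at 1 h (exact adjusted p = 0.0480), Spp1 from 0.220 to 0.477 (exact adjusted p = 0.0570) and Lpl from 0.843 to 0.608 (exact adjusted p = 0.657), all with 0.5 cDNAs added. Against 24.3% of all genes called in either direction, 1 of 3 members called is near the background. The Plau call was lost with each site counted once, where its odds ratios were 0.455 and 0.467 (exact adjusted p = 1.00). Against all other cDNAs of the list all 3 members were called with a larger ratio at 1 h, Plau by 3.39 on the log2 scale (exact adjusted p = 1.96e-08), Spp1 by 3.09 (exact adjusted p = 8.00e-12) and Lpl by 1.51 (exact adjusted p = 0.0313), as were 126 of the 235 genes tested.

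Over time, Lpl was the only member called with a higher share at 1 h than at 0 h with both proteins. Plaur, without cDNAs at 0 h, was not tested with TTP and not called with TTP-AA (exact adjusted p = 0.223). With TTP the share of Lpl went from 0.275% to 0.900% (odds ratio 3.30, exact adjusted p = 1.06e-04) and with TTP-AA from 0.233% to 0.552% (2.38, exact adjusted p = 0.00688). Spp1 was called with TTP-AA, from 0.233% to 0.489% (2.10, exact adjusted p = 0.0328), and not with TTP, where it stayed near 1% (1.08% and 1.01%, odds ratio 0.943, interval 0.658 to 1.37, exact adjusted p = 0.838). Plau was called with neither protein (TTP 0.662, exact adjusted p = 0.249, and TTP-AA 1.80, exact adjusted p = 0.0886). The background of genes called in either direction was 47.5% of 276 genes for TTP and 12.4% of 2052 genes for TTP-AA, with a higher share at 1 h for 23.9% and 2.73% and a lower share for 23.6% and 9.70%. Called or not, 110 of 276 genes with TTP and 1444 of 2052 with TTP-AA had a higher share at 1 h, with 0.5 cDNAs added. An odds ratio larger than that of Lpl was found for 75 and 1396 genes. With only sites of at least 2 cDNAs, which leaves fewer counts, none of these calls of Lpl and Spp1 passed. The odds ratio of Lpl was then 1.64 with TTP (exact adjusted p = 0.429) and 2.63 with TTP-AA (exact adjusted p = 0.0566), and that of Spp1 with TTP-AA was 1.92 (exact adjusted p = 0.237). With each site counted once the calls for TTP-AA did not pass (Lpl exact adjusted p = 0.185, Spp1 exact adjusted p = 0.643). Plau was called higher at 1 h with TTP-AA with sites of at least 2 cDNAs (3.07, exact adjusted p = 0.00400) and against all cDNAs of the list (5.24, exact adjusted p = 1.97e-16). With TTP it was called lower at 1 h against all cDNAs (0.490, exact adjusted p = 0.0457), as Spp1 was with sites of at least 2 cDNAs (0.578, exact adjusted p = 0.0349).

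At 4 h the lists were nearly empty of these genes. The TTP list went from 217 3′UTR cDNAs of the members at 1 h to none, and the TTP-AA list from 1507 to the 8 of Spp1. Against the shrunken 3′UTR total of 906 cDNAs, Lpl and Spp1 were called lower with TTP (exact adjusted p = 0.00571 and 0.00280) and Plau was not (exact adjusted p = 0.408), where 20% of 170 genes were called, 14.1% with a higher and 5.88% with a lower share. With sites of at least 2 cDNAs the Lpl call did not pass (exact adjusted p = 0.261). With TTP-AA no member was called at an adjusted p under 0.05, although Lpl and Plau had an unadjusted p of 0.00795 and 0.0116 by the same exact test, and 3.13% of 1980 genes were called, 3.03% with a higher and 0.101% with a lower share at 4 h. Between the proteins at 4 h no member had enough cDNAs to be tested, and 68.0% of 25 genes were called, 36.0% with a higher and 32.0% with a lower share with TTP-AA. Spp1 had a share of 0.800% (interval 0.346% to 1.57%) in the TTP-AA list at 4 h and 0.489% at 1 h (odds ratio 1.64, exact adjusted p = 1.00). Against all cDNAs of the list, all 4 members were called lower at 4 h with TTP-AA, Spp1 with an odds ratio of 0.159 (exact adjusted p = 1.62e-10), and Plau was called lower with TTP as well (exact adjusted p = 0.00742). The lists hold only sites past a false-discovery rate, so a gene without cDNAs had no site past it, which sets no limit on its binding. Whether the mark that the headers of the 1 h lists carry and the others lack, which concerns how regions were handled in the site test, plays a part in any difference between times was not tested.

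Within Lpl, the tallest peaks at 1 h lay at its AUUUA pentamers, while more than 50% of the cDNAs were spread over other stretches of the 3′UTR. The 3 windows printed above cover 3.71% of the 3′UTR and held 222 of 516 cDNAs with TTP-AA (43.0%, 38.7% to 47.4%) and 37 of 86 with TTP (43.0%, 32.4% to 54.2%). The window at 2168 to 2197 held 106 and 13 of them, the one at 1716 to 1745 held 63 and 7, and the one at 65 to 94 held 53 and 17. The most frequent nucleotide with TTP-AA was 2177, the A shared by an overlapping pair of AUUUA, with 18 cDNAs, followed by 1741 with 12, the first A of the third AUUUA along the 3′UTR. With TTP the most frequent were 70 and 73, inside the first pair of AUUUA, with 3 each. No more than 0.388% of Lpl cDNAs lay in the last 100 nt (2 of 516 with TTP-AA), where the poly(A) signal AAUAAA starts at nucleotide 2400.

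**Figure D3:**
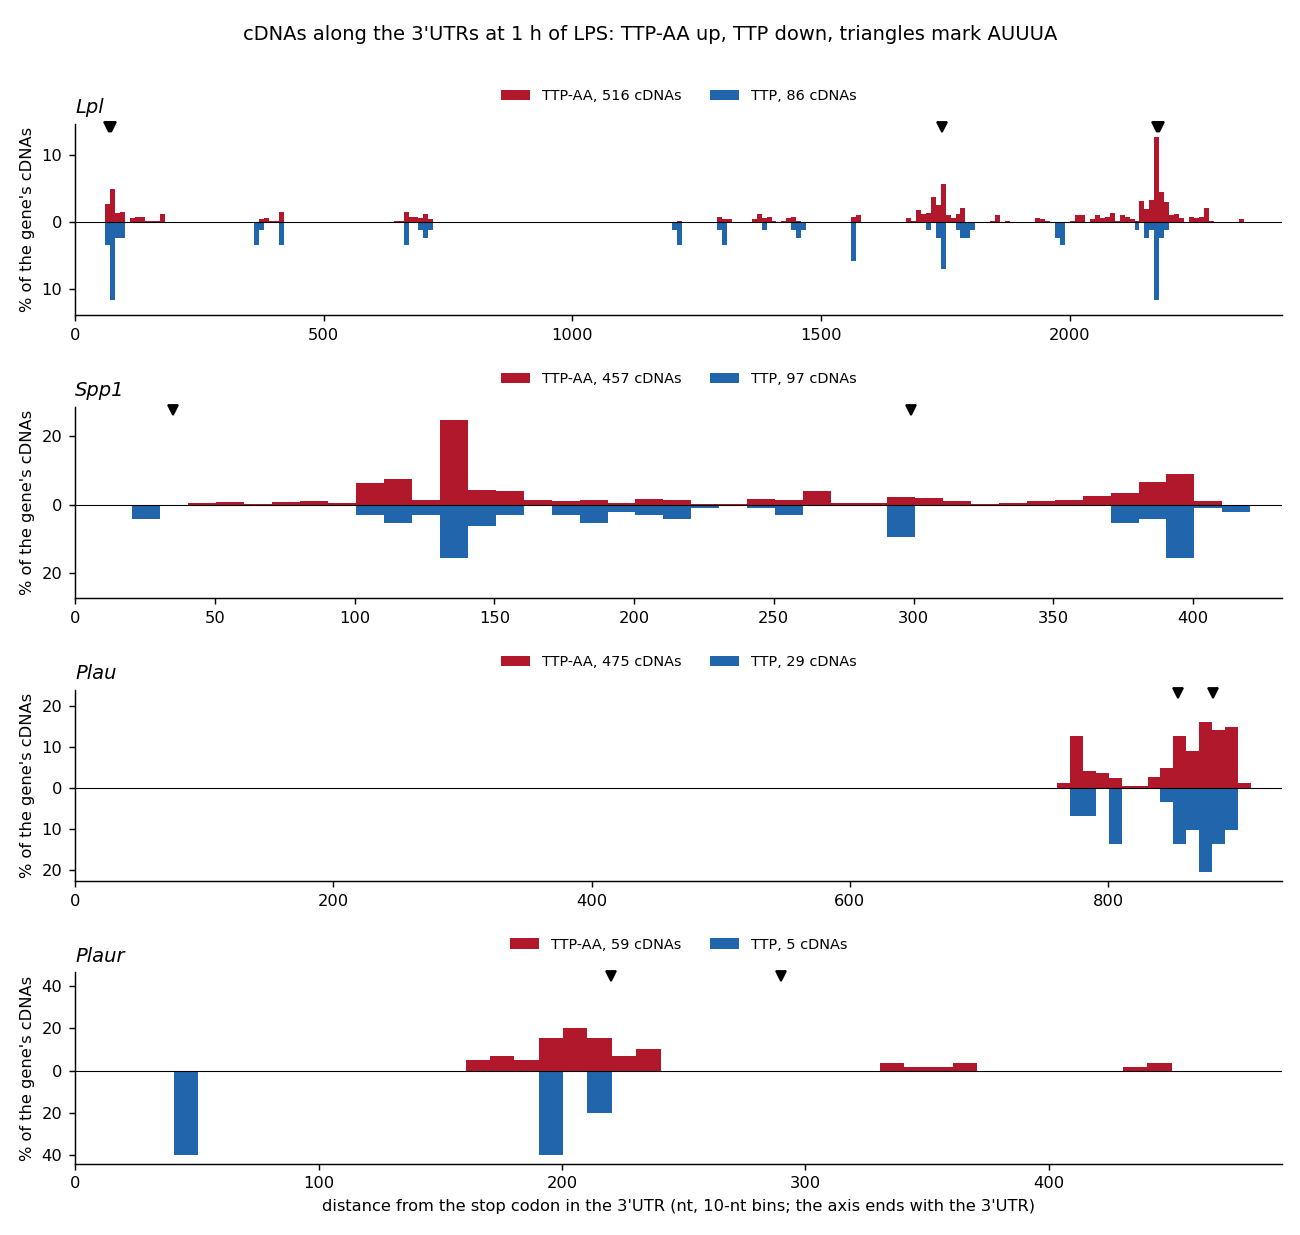
Each panel shows 1 3′UTR from the stop codon (left) to its end (right), with the percent of the gene's 3′UTR cDNAs per 10-nt bin at 1 h, TTP-AA upward and TTP downward; triangles mark AUUUA. In Lpl the tallest bins lie under triangles, and in Plau the tallest bin lies just beside a triangle. In Spp1 the tallest bin at 131 to 140 has no triangle near it, and in Plau no cDNA lies in the first 767 nt.

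Before LPS, both proteins had cDNAs in Lpl at and around nucleotide 2208, but its first AUUUA pair had listed cDNAs with TTP only. Only sites past a false-discovery rate are listed, so an empty window sets no limit on binding there. With TTP, 7 of 12 cDNAs lay in the window at 65 to 94 (58.3%, exact 95% interval 27.7% to 84.8%), whereas with TTP-AA 0 of 14 did (upper limit 23.2%), and its first site was at nucleotide 1770. The median cDNA lay at nucleotide 73 with TTP and 1787 with TTP-AA. The intervals of the shares in that window do not overlap at 0 h, and at 1 h the shares were 19.8% with TTP (12% to 29.8%) and 10.3% with TTP-AA (7.79% to 13.2%), which do.

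The main site of Spp1 lay away from its AUUUA pentamers, at nucleotides 33 and 297. The window at 110 to 139 held 156 of 457 cDNAs with TTP-AA at 1 h (34.1%, 29.8% to 38.7%) and 23 of 97 with TTP (23.7%, 15.7% to 33.4%). Its summit, nucleotide 136 with 24 cDNAs, was the highest site of any member in any list and lay 99 nt from the nearest AUUUA. Nucleotides 133 and 135 followed with 18 and 17, in the stretch uaauauuu at the end of that window. The second cluster, at 372 to 401, ran through 8 uridines at 393 to 400, before the poly(A) signal AAUAAA at 410, and held 90 cDNAs (19.7%) with TTP-AA and 24 (24.7%) with TTP.

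Before LPS the first of these Spp1 clusters was listed with TTP only, which again sets no limit on binding by TTP-AA there. At 0 h the window at 110 to 139 held 18 of 47 cDNAs with TTP (38.3%, exact 95% interval 24.5% to 53.6%) and 0 of 14 with TTP-AA (upper limit 23.2%). All 14 TTP-AA cDNAs lay between nucleotides 390 and 404, 13 of them in the window at 372 to 401 (92.9%, 66.1% to 99.8%), where TTP had 22 of 47 (46.8%, 32.1% to 61.9%). The 8 TTP-AA cDNAs at 4 h lay in that second cluster as well, between 388 and 406. The lower share of Spp1 with TTP-AA at 0 h therefore came with listed cDNAs in the second cluster alone.

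**Figure D4:**
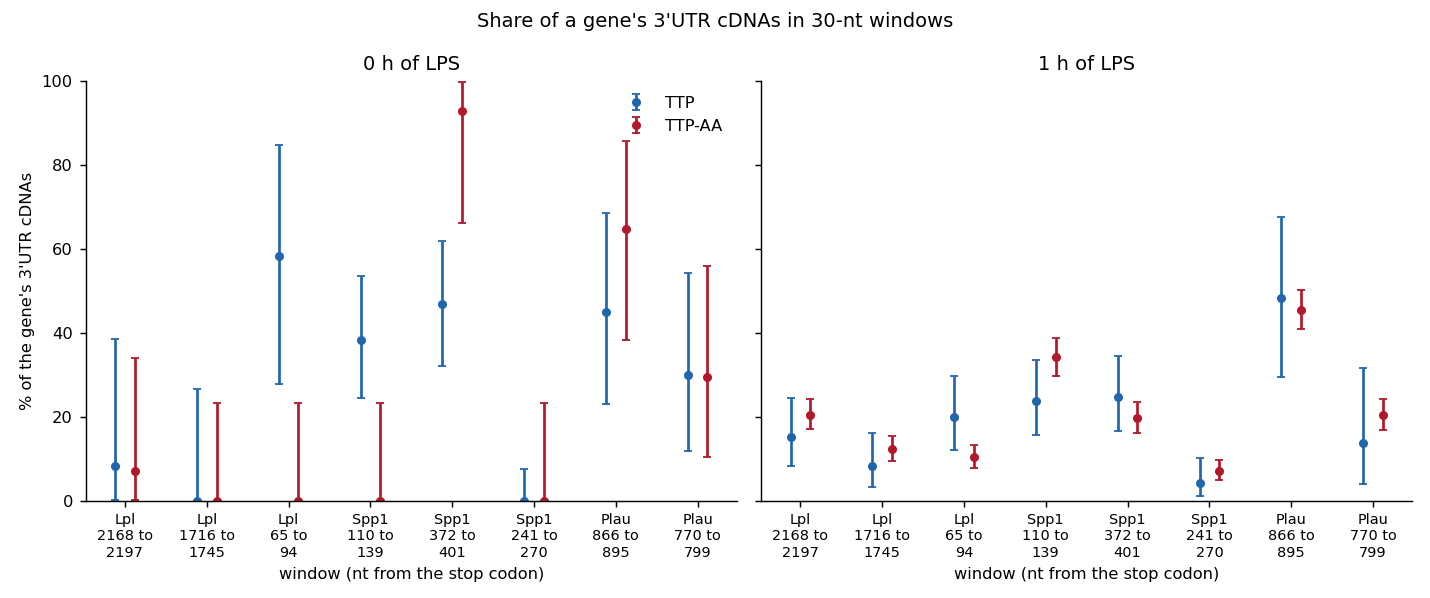
The percent of a gene's 3′UTR cDNAs in 30-nt windows (x axis, nucleotides from the stop codon) at 0 h and 1 h for TTP and TTP-AA, with exact 95% intervals for counting error. At 0 h the intervals of TTP and TTP-AA do not overlap for Lpl 65 to 94 and for both leading Spp1 windows, and at 1 h those of every window overlap. Only sites past a false-discovery rate are listed, so an empty window sets no limit on binding.

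In Plau all sites lay near the end of the 3′UTR. The first was at nucleotide 768 of 935 with TTP-AA at 1 h and at 767 in the TTP list at 0 h, and the last 100 nt held 355 of 475 cDNAs with TTP-AA (74.7%, 70.6% to 78.6%) and 21 of 29 with TTP (72.4%, 52.8% to 87.3%) at 1 h. The window at 866 to 895, around UAUUUAU, held 216 cDNAs with TTP-AA (45.5%) and 14 with TTP (48.3%) at 1 h, and 9 of 20 with TTP and 11 of 17 with TTP-AA at 0 h. The window at 770 to 799, which opens in a run of 38 uridines, held 97 (20.4%) and 4 (13.8%) at 1 h. The ratio of TTP-AA to TTP cDNAs was 15.4 in the first window (exact 95% interval 9.0 to 28.7) and 24.2 in the second (9.17 to 90.8), which do not differ beyond counting error.

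Plaur was bound in the middle of its 3′UTR. The window at 189 to 218, which opens with repeats of uua and ends where an AUUUA begins at nucleotide 218, held 30 of 59 cDNAs with TTP-AA (50.8%, 37.5% to 64.1%) and 3 of 5 with TTP at 1 h. The other TTP cDNAs lay at nucleotides 46 and 47, where TTP-AA had none.

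AUUUA lay wholly within 20 nt of 28.2% of the members' 602 TTP-AA sites at 1 h (24.7% to 32.0%) and of 30.6% of their 170 TTP sites (23.8% to 38.1%), against 7.74% of all positions of the 4 3′UTRs. The genes differed widely. Weighted by cDNAs at 1 h, the share with TTP-AA was 72.6% in Plau, 52.5% in Plaur, 44.8% in Lpl and 5.25% in Spp1, where the positions of the same 3′UTR gave 6.84%, 14.9%, 4.94% and 17.1%. Spp1 was thus below its own background with TTP-AA (exact 95% interval 3.39% to 7.71%), while the interval with TTP held it (13.4%, 7.33% to 21.8%). Over all genes with a 3′UTR site the corresponding shares were 40.7% with TTP-AA and 43.4% with TTP, against 7.09% and 7.04% of positions. For UAUUUAU, which Spp1 and Plaur lack, 49.3% of Plau and 34.9% of Lpl TTP-AA cDNAs at 1 h lay within 20 nt.

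**Figure D5:**
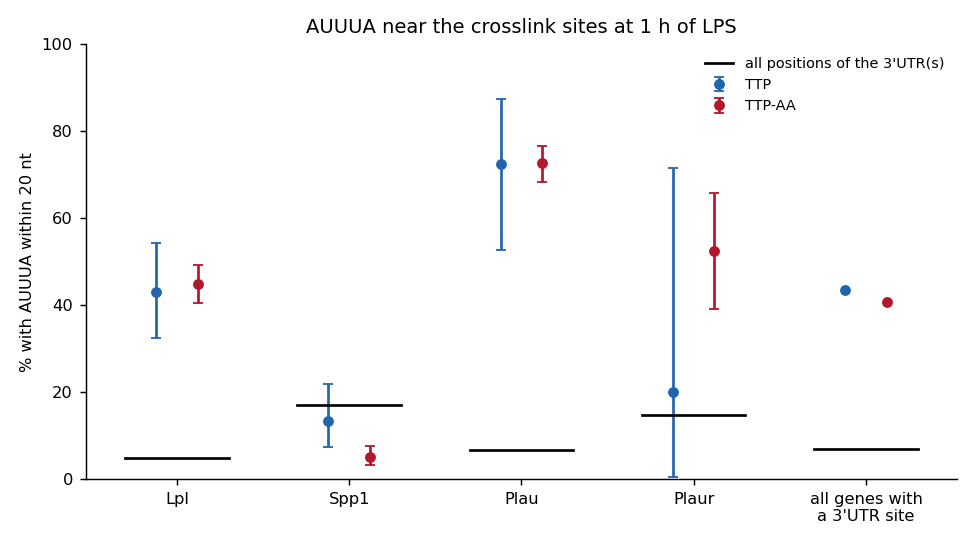
Points give the percent of 3′UTR cDNAs at 1 h with AUUUA wholly within 20 nt, for TTP and TTP-AA, with exact 95% intervals for the members, and black lines give the percent of all positions of the same 3′UTR. Lpl and Plau lie well above their lines with both proteins, Plaur with TTP-AA, and Spp1 with TTP-AA lies below its line.

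The sites themselves were uridine-rich, to a differing degree. In the TTP-AA list at 1 h a uridine stood at 59.2% of Plau sites, 56.1% of Plaur sites, 52.9% of Lpl sites and 47.8% of Spp1 sites, against 61.6% over all genes with a 3′UTR site. The share of uridine within 10 nt was 57.0%, 49.5%, 39.5% and 40.7%, against 46.2% over all genes, and over the whole 3′UTRs it was 32.5%, 33.9%, 27.3% and 34.5%. At the site itself all 4 members were below all genes, and within 10 nt Plau and Plaur were above them and Lpl and Spp1 below. Within 10 nt every member was above its own 3′UTR.

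TTP and TTP-AA met at the same positions at 1 h. Of the members' 170 TTP sites, 163 had a TTP-AA site within 15 nt (95.9%, 91.7% to 98.3%), where 44.4% of all positions of the 4 3′UTRs did, and 114 (67.1%) were the same nucleotide, against 14.0% of positions. In Plau all 24 TTP nucleotides were also TTP-AA nucleotides. In Spp1 67 of 68 had a TTP-AA site within 15 nt, but so did 91.2% of its positions. In the reverse direction, 77.6% of the 602 TTP-AA sites had a TTP site within 15 nt (74.0% to 80.8%), against 28.2% of positions. The share was 99.0% in Plau, 87.2% in Spp1, 66.5% in Lpl and 56.1% in Plaur. In 25-nt bins with any cDNA, the counts of both proteins had a Spearman rho of 0.77 in Plau (7 bins), 0.63 in Spp1 (17 bins), 0.31 in Lpl (46 bins) and 0.17 in Plaur (8 bins). These values are a description only, because a cluster of sites can span neighbouring bins and both lists share base composition. At 0 h, when both lists were sparser, 32 of 54 TTP sites had a TTP-AA site within 15 nt (59.3%, 45.0% to 72.4%), against 6.04% of positions, with 44.4% in Lpl, 53.8% in Spp1 and 73.7% in Plau. In the reverse direction 21 of 29 TTP-AA sites had a TTP site within 15 nt (72.4%, 52.8% to 87.3%), against 7.50% of positions. All 54 TTP sites and all 29 TTP-AA sites of 0 h had a site of the same protein at 1 h within 15 nt, against 28.2% and 44.4% of positions.

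Other genes of the same pathways were taken from lists, whereas Lpl, Spp1 and Plau are targets that the study itself listed, so a lower count in the lists is not independent of that choice. Over all 2065 genes tested at 1 h, 6.39% were called, 1.99% with a higher and 4.41% with a lower share with TTP-AA. A 3′UTR site was listed for 4835 genes, beside 21021 protein-coding genes with a 3′UTR. The lists were not matched to all genes for counts, and no list was tested against these shares. In a list of 23 genes of plasminogen activation and fibrinolysis, 7 had 3′UTR cDNAs, 340 with TTP-AA and 19 with TTP at 1 h (ratio 17.9, exact 95% interval 11.3 to 30.1). Of 5 tested at 1 h, 1 was called, Itgam, the CD11b chain of the integrin Mac-1, which had 85 cDNAs with TTP-AA and was listed at 0 with TTP (exact adjusted p = 0.0118). Itgam entered the test through its TTP-AA cDNAs alone, and a listed 0 sets no limit on binding by TTP. Igf2r, a receptor for mannose 6-phosphate proteins, had 85 and 6, and Itgb2, the partner chain of Itgam, had 57 and 2. Neither passed the test, with exact adjusted p-values of 0.731 for Igf2r and 0.494 for Itgb2. All 7 genes together had fewer TTP-AA cDNAs than Plau alone, and the median log2 share ratio of the 5 tested genes was 0.43, against 1.23 for all genes.

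Of 28 genes for partners of lipoprotein lipase and for lipid uptake, 9 had 3′UTR cDNAs, 184 with TTP-AA and 22 with TTP at 1 h (ratio 8.36, exact 95% interval 5.36 to 13.7). Of 6 tested, 1 was called, against 6.39% of all genes in either direction. This was the cholesterol exporter Abcg1, with 9 cDNAs with TTP-AA and 11 with TTP (odds ratio 0.0835, exact adjusted p = 3.08e-05). The lysosomal acid lipase Lipa had 53 and 3, and the cholesterol exporter Abca1 had 23 with TTP-AA and was listed at 0 with TTP, neither of them called. The median log2 share ratio was 1.15. All 9 together had fewer TTP-AA cDNAs than Lpl alone.

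Of 18 genes for osteopontin receptors and related proteins, 5 had 3′UTR cDNAs, with 562 with TTP-AA and 32 with TTP at 1 h (ratio 17.6, exact 95% interval 12.3 to 25.9), and all 5 were chains of cell-surface receptors. Cd44 led with 208 and 25 (exact adjusted p = 0.699). The integrin chains Itgav and Itga4 were called higher with TTP-AA, with 91 and 95 cDNAs there and both listed at 0 with TTP (exact adjusted p = 0.00641 and 0.00695). Both met the minimum of 10 cDNAs through TTP-AA alone. Only sites past a false-discovery rate are listed, so a listed 0 sets no limit on binding by TTP. Of 5 tested, 2 were called, against 6.39% of all genes in either direction and 1.99% with a higher share. The median log2 share ratio was 1.23, the same as over all genes. The summed receptors of osteopontin thus had a higher ratio than Spp1 itself, whose interval ended at 5.93. Cd44 alone had a ratio of 8.32 (5.48 to 13.2), which overlaps the interval of Spp1. Those of Itgb1 (8.29 to 82.5) and Itga5 (8.80 to 132) lay above it, and Itgav and Itga4 had no listed TTP cDNA to give a ratio. Over all 3′UTR cDNAs of the lists the ratio was 9.78.

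Of 35 other secreted proteins of macrophages, 12 had 3′UTR cDNAs, 579 with TTP-AA and 125 with TTP at 1 h (ratio 4.63, exact 95% interval 3.81 to 5.67). Of 8 tested, 2 were called, both with a lower share with TTP-AA like Lpl and Spp1, against 4.41% of all genes. These were lysozyme Lyz2 with 143 and 68 cDNAs (exact adjusted p = 2.86e-18) and the glycoprotein Gpnmb with 160 and 33 (exact adjusted p = 0.0150). Csf1, the growth factor of macrophages, had 144 and 9 (exact adjusted p = 0.490). The median log2 share ratio was -0.20. Neither Lyz2 nor any other gene of this list reached the 457 TTP-AA cDNAs of Spp1.

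The genes most like each member were sought by the Hellinger distance between the shares of their 3′UTR cDNAs over the 6 lists, each list scaled to its 3′UTR total, among the 162 other genes with at least 100 such cDNAs. Nearest to Lpl were Ywhag (0.0921), Bcl2l11 (0.115) and Nfkbia (0.139). Nearest to Plau were Ifrd1 (0.0579), Atp1b3 (0.0842) and Ago2 (0.0974). Nearest to Spp1 were Cdkn1a (0.162), Txnrd1 (0.186) and Osbpl8 (0.199). They had 10, 2 and 3 TTP-AA cDNAs at 4 h, which enter the distance itself and so are not a separate likeness. No member was among the 3 genes nearest to another member, and Plaur, with 64 cDNAs, was too low to be compared.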

How the data were processed

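Crosslink sites of 15 iCLIP samples in 6 groups were analysed from 6 deposited lists, 1 per group. Per the file headers and the methods of the study, the authors removed barcodes and PCR duplicates, mapped reads to mm10 with Bowtie (version not given in the sources used here) and the Ensembl 75 annotation, summed the samples of a group, and kept sites at a false-discovery rate under 0.05 in iCount (100 permutations, neighbourhood of 15 nt). The deposited value of each site is a score: the number of unique cDNAs, as a whole number that is negative for sites on the minus strand, not normalised. Between 0.137% and 0.778% of the sites of a list had no other cDNA within 15 nt on their strand. The headers of the 1 h lists carry a mark on the handling of regions that the others lack.

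Sites were assigned to GENCODE M21 (GRCm38, the same assembly as mm10) in the order 3′UTR, coding sequence, 5′UTR, non-coding exon, intron, and numbered along the longest 3′UTR of the gene. Sequences came from the GENCODE M21 transcripts. Genes with at least 10 3′UTR cDNAs over both lists were tested with two-sided Fisher exact tests against all other 3′UTR cDNAs, and genes with at least 10 in both tables with Zelen's exact test, each with Benjamini-Hochberg adjustment over all genes tested (threshold 0.05). Intervals are exact 95% intervals (Clopper-Pearson, or conditional for ratios). All of them cover counting error only, and short random barcodes can lower high counts. The tests were tested on simulated data. Python 3.11.15, numpy 2.4.6, pandas 2.3.3, scipy 1.17.1 and matplotlib 3.10.9 were used.

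The 4 genes and the gene lists were chosen with earlier results of these data known, and Lpl, Spp1 and Plau are among the strongest targets that the study itself listed from these sites. Genes named from a list were those called at 1 h (at most 4) and the 3 with most TTP-AA cDNAs at 1 h, with ties, some of which are not reported here. Alternatives were another reference, each site counted once, sites with at least 2 cDNAs, genes with at least 1 cDNA, all sense cDNAs, other region orders, and other windows and motifs. For the Zelen test and for the ratios of cDNAs, alternatives were added after the data had been seen.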

Additional observations from a re-analysis of the deposited data

Results flagged for a closer look

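For Plau, the TTP-AA to TTP odds ratio differed between 1 h and 0 h by 1.41 on the log2 scale, from 0.620 to 1.65, by the exact test of equal odds ratios (adjusted p = 0.0480, from 20, 17, 29 and 475 cDNAs in the TTP and TTP-AA lists at 0 h and the TTP and TTP-AA lists at 1 h). Among the 235 genes tested, 24.3% were called, 14.0% with a larger ratio at 1 h. With each site counted once the log2 difference was 0.04 (exact adjusted p = 1.00), and against all other cDNAs of the list it was 3.39 (exact adjusted p = 1.96e-08).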

How the results depend on the processing

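No paired analysis was possible because each group is 1 list with its samples summed, and for the same reason no sample could be left out in turn. The number of genes called depended on the setting in most comparisons. For TTP-AA versus TTP at 0 h the 74 genes became 31 with each site counted once and 31 with sites of at least 2 cDNAs, and 178 with all sense cDNAs. At 1 h the 132 genes became 1763 against all other cDNAs of the list (1754 higher and 9 lower with TTP-AA, in place of 41 and 91), 64 with sites of at least 2 cDNAs and 1739 with all sense cDNAs. At 4 h the 17 genes became 7 with each site counted once, 10 with sites of at least 2 cDNAs and 118 with all sense cDNAs. For TTP at 1 h versus 0 h the 131 genes became 67, 47 and 375 under these same settings. For TTP-AA at 1 h versus 0 h the 255 genes became 503 against all cDNAs (466 higher and 37 lower at 1 h, in place of 56 and 199), 90 with sites of at least 2 cDNAs and 542 with all sense cDNAs. For TTP at 4 h versus 1 h the 34 genes became 14 with sites of at least 2 cDNAs, 54 with genes of at least 1 cDNA and 188 with all sense cDNAs. For TTP-AA at 4 h versus 1 h the 62 genes became 276 against all cDNAs (5 higher and 271 lower at 4 h, in place of 60 and 2), 19 with sites of at least 2 cDNAs, 109 with genes of at least 1 cDNA and 290 with all sense cDNAs. For the test of equal odds ratios the 57 genes became 132 against all cDNAs and 35 with each site counted once. Against all cDNAs the split of higher and lower calls also went from 42 and 32 to 59 and 19 for the proteins at 0 h, from 9 and 8 to 10 and 4 at 4 h, from 66 and 65 to 32 and 93 for TTP at 1 h versus 0 h, and from 24 and 10 to 4 and 47 for TTP at 4 h versus 1 h. The settings differ in the total that a gene is set against or in how many genes and counts enter, and no further cause was tested.

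Among the members, 15 of the tested odds ratios under other settings had the opposite direction. At 1 h these were Lpl at 3.42 against all cDNAs, 2.67 with all sense cDNAs and 1.22 with sites of at least 2 cDNAs, Spp1 at 2.69 and 2.08 with the first 2 of these settings, and Plau at 0.474 and Plaur at 0.908 with each site counted once. At 0 h they were Lpl at 1.20 and 1.18 with the same first 2 settings and Plau at 2.63 with sites of at least 2 cDNAs. Over time they were Spp1 at 1.30 (each site counted once) and Plau at 2.05 (sites of at least 2 cDNAs) for TTP at 1 h versus 0 h, Plau at 0.663 (each site counted once) for TTP-AA at 1 h versus 0 h, and Spp1 at 0.159 and 0.250 (all cDNAs, all sense cDNAs) for TTP-AA at 4 h versus 1 h. Scaled to the 3′UTR cDNAs of each list, the ratio of TTP-AA to TTP at 1 h turned to 0.613 for Lpl and 0.482 for Spp1. The log2 change of the odds ratio of Lpl turned to 1.51 against all cDNAs. Of the other tested odds ratios, 62 kept direction and side of the threshold, 20 passed it and 7 no longer did. Plaur with sites of at least 2 cDNAs at 1 h gave no odds ratio, because the TTP list then held none of its cDNAs.

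The share of member sites at 1 h with AUUUA nearby was 39.4% for TTP and 47.2% for TTP-AA within 50 nt (18.0% of positions), 16.1% for TTP-AA within 10 nt (3.78% of positions), 41.9% for TTP-AA weighted by cDNAs, and 17.1% and 14.3% for UAUUUAU (2.45% of positions). The share of TTP sites near a TTP-AA site at 1 h was 87.6% within 5 nt and 67.1% on the same nucleotide, and in reverse 60.8%, 18.9%, and 63.3% with sites of at least 2 cDNAs. On the same nucleotide at 0 h the shares were 16.7% and 31.0%. The share of cDNAs in 3′UTRs moved within its interval under both other assignments of regions.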

Other observations

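The following were chosen after their values were seen. The Plau 3′UTR holds a run of 38 uridines at nucleotides 750 to 787, in which 83 of 475 TTP-AA cDNAs at 1 h lay (17.5%) on 20 nucleotides. With TTP 2 of 29 cDNAs lay in it at 1 h (6.90%), but 9 of 20 at 0 h (45%), where TTP-AA had 1 of 17 (5.88%).

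In Lpl, 496 nt in a row from nucleotide 721 held no TTP-AA cDNA at 1 h, and 492 nt from nucleotide 715 held no TTP cDNA. This stretch contains none of the 5 AUUUA pentamers, and how well reads map in it was not tested.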
